A study of Mus musculus with 66 samples.

Results

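RNA levels were compared between mouse embryonic stem cells with auxin and without auxin at 50 minutes after their release from mitotic arrest. The genes described are all those that reached at least 1 TPM (a transcript level scaled for gene length and library size) in at least 1 of the 18 RNA groups of the study, which are 8999 of the 13957 genes in the authors' table. The cells with auxin and the cells without auxin were the same line, a 129/Ola E14Tg2a derivative in which the nuclear receptors Esrrb and Nr5a2 are both degraded when auxin is given. All of the released cells had been arrested in mitosis first, and each group had 3 libraries of total RNA depleted of ribosomal RNA. The 18 groups are 9 stages (cells in mitosis, 7 times between 20 and 120 minutes after release, and asynchronous cells), each with and without auxin. Titles of the samples gave the arm, since all libraries carry one and the same treatment entry. Nr5a2 binding came from ChIP-seq of wild-type E14Tg2a cells, as 1 list of 35266 peaks with no signal per library. Both receptors are degraded together, and no library came from cells with auxin but without degradable receptors, so the loss of Esrrb, the loss of Nr5a2 and auxin itself cannot be told apart. The expression values are means that the authors took over the libraries of a group, with no value per library, so no value below has a replicate error and no gene has a test. All differences are descriptions, and nothing in the labels says that the 3 libraries came from separate cultures.

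Esrrb and Nr5a2 are orphan nuclear receptors that bind related DNA motifs and act in the transcription network of naive pluripotency, together with factors such as Nanog, Klf4 and Tfcp2l1. Transcription largely stops in mitosis and resumes as cells leave it. Some transcription factors stay on a part of their sites in mitotic chromosomes, which is called mitotic bookmarking, and Esrrb and Nr5a2 are known to do so in embryonic stem cells.

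The cells carried the markers of embryonic stem cells in both arms. Of 7 such markers, 6 are listed in the table, and all 6 were above 1 TPM at 50 minutes, with summed levels of 69.6 TPM with auxin and 91.0 TPM without auxin. Among markers of feeder fibroblasts, 4 of 8 are listed, and their sum was 10.03 TPM with auxin and 10.63 TPM without auxin, nearly all from Fn1 and Vim, while Col1a1 and Thy1 stayed below 1 TPM. The 4 listed of 6 primitive endoderm markers summed to 0.378 TPM with auxin and 0.377 TPM without auxin. The 4 listed of 5 trophectoderm markers summed to 1.496 TPM with auxin and 1.28 TPM without auxin, most of it from Eomes. In bulk RNA, fewer cells of a type and less RNA per cell cannot be told apart.

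The summed level of the genes was nearly the same in the 2 arms at 50 minutes. Over the 8999 genes the levels summed to 37510 TPM with auxin and 37529 TPM without auxin. The difference of a gene is given as log2(TPM + 1) with auxin minus the same without auxin, a scale that understates the change of low genes. The median difference over all genes was 0.00, with a standard deviation over genes of 0.10, and 4401 genes (48.9%) were below 0. This balance was not shared by the neighbouring times. At 40 minutes the median was 0.08 and 28.3% of genes were below 0, and at 60 minutes the median was -0.06 and 80.5% of genes were below 0. The median difference thus passed from above to below 0 over these 20 minutes.

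Most genes were close between the arms. Of all genes, 15 (0.167%) were at least 1.5-fold lower with auxin and 4 (0.0444%) were at least 1.5-fold higher, on the log2(TPM + 1) scale. These counts depend on the pseudocount, and with 0.1 in place of 1 they were 80 lower and 31 higher. A smaller threshold was set at a log2 difference of 0.32, which is a value of TPM + 1 that is 25% above or 20% below that of the other arm. By at least that much, 102 genes (1.13%) were lower and 39 (0.433%) were higher, and with a pseudocount of 0.1 these were 267 and 100. Lower genes were thus more numerous than higher ones although the median gene did not differ. At 40 minutes the split was the other way, with 165 genes (1.83%) lower by at least 0.32 and 259 (2.88%) higher, and at 60 minutes 160 (1.78%) were lower and 46 (0.511%) higher.

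**Figure D1:**
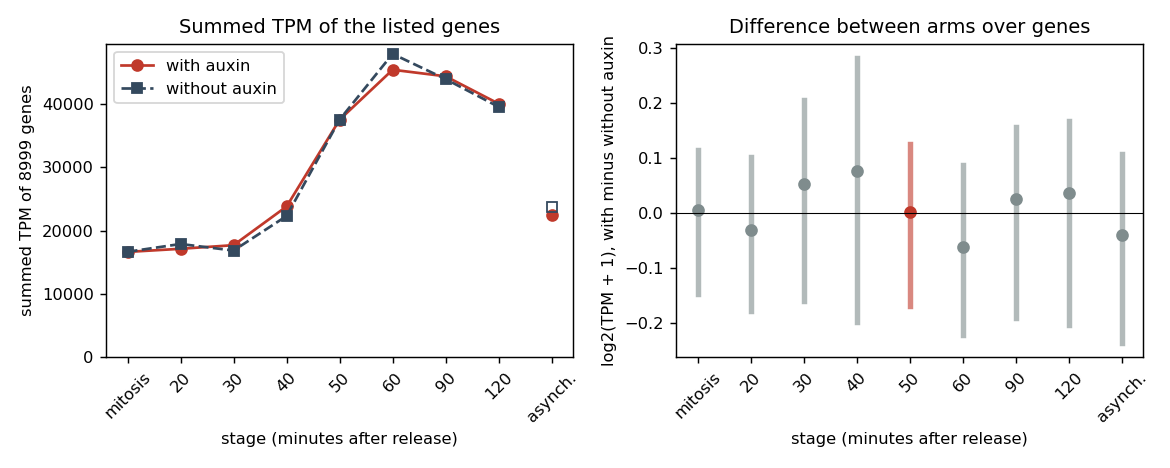
Left, summed TPM (y axis) of the 8999 genes at each stage (x axis), with auxin in red circles and without auxin in dark squares. Right, the difference in log2(TPM + 1), with minus without auxin, at each stage, with the median over genes as a point and the range from the 5th to the 95th percentile of genes as a bar; the 50-minute median, in red, lies at 0.00, between medians of 0.08 at 40 minutes and -0.06 at 60 minutes.

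Both arms had left the mitotic level by this time. Relative to mitosis in the same arm, the median gene was higher by 0.67 on the log2 scale with auxin and by 0.67 without auxin, and 2742 genes with auxin (30.5%) and 2752 genes without auxin (30.6%) were at least 2-fold higher. Between 40 and 50 minutes the median increase was 0.44 with auxin and 0.50 without auxin. The increase over these 10 minutes and the difference at 50 minutes use the same 50-minute values, so they are not separate observations.

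Esrrb and Nr5a2 transcripts were close to equal in the 2 arms. Auxin removes the proteins, so these RNA levels do not check the degradation. Esrrb was at 3.75 TPM with auxin and 3.97 TPM without auxin, a difference of -0.07. It was below 0 at each of the 9 stages, with the most negative difference, -0.46, in asynchronous cells. Nr5a2 was at 2.73 TPM with auxin and 2.89 TPM without auxin at 50 minutes. Its difference was 0.21, -0.06 and -0.29 at 40, 50 and 60 minutes, so it passed from above to below 0 at about this time, as the median of all genes did. At 90 and 120 minutes Nr5a2 was at -0.25 and -0.17, while the all-gene median was above 0 again.

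The promoters of 5 genes that were lower with auxin are shown because a Nr5a2 peak overlaps each of them. Upp1, Ldhb and Fabp3 are among the 12 genes with the lowest differences, and each has a peak of the class that the authors code dB over its promoter. Among the same 12, 1700030C10Rik also has a promoter peak, coded eB, and its promoter is not shown. Its difference was -0.73 at 50 minutes but 0.63 in asynchronous cells. What these codes stand for is not given in the sources used here. Zfp42 and Triml2, which are both on chromosome 8 and whose promoters lie under peaks coded eB, were added after their values were seen. Each sequence holds the 250 bases before the RefSeq gene start on GRCm38.p6, 5′ to 3′ on the strand of the gene. Capitals mark matches, on either strand, to TCAAGG or AAGGTCA, which are core forms of the motif bound by Esrrb and Nr5a2.
The Upp1 promoter (chr11:9117758-9118007, plus strand) lies wholly under its peak and holds no match to either motif.
Upp1: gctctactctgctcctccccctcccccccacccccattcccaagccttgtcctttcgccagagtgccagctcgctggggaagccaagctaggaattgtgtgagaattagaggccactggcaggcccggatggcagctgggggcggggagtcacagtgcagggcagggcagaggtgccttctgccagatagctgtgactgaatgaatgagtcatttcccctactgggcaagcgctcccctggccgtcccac
The Ldhb promoter (chr6:142507958-142508207, minus strand) lies wholly under its peak and holds 1 match to TCAAGG.
Ldhb: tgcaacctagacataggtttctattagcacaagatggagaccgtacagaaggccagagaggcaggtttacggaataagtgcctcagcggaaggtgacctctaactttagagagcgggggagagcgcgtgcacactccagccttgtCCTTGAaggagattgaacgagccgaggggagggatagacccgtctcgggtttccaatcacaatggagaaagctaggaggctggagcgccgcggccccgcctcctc
The Fabp3 promoter (chr4:130308488-130308737, plus strand) has 94 of its 250 bases under its peak and no match.
Fabp3: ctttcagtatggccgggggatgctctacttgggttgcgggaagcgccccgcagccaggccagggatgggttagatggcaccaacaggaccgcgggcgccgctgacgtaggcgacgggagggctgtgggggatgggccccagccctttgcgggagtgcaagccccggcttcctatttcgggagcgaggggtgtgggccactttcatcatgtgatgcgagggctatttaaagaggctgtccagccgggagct
The Zfp42 promoter (chr8:43307010-43307259, minus strand) lies wholly under its peak and holds 2 matches to TCAAGG.
Zfp42: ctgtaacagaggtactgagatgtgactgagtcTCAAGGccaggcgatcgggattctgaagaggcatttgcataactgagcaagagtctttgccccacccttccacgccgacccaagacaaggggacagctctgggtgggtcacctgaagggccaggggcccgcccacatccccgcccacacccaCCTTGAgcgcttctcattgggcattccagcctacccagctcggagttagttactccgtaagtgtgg
The Triml2 promoter (chr8:43180286-43180535, plus strand) lies wholly under its peak and holds 1 match to AAGGTCA.
Triml2: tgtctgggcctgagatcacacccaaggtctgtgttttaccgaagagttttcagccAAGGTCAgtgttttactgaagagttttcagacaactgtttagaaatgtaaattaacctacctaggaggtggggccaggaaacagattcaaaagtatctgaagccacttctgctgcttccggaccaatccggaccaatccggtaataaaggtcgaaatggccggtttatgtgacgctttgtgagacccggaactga
Of 7266 promoters of the same length, 9.95% hold TCAAGG and 2.53% hold AAGGTCA. Among the 962 whose promoter window (250 bases before to 50 bases after the start) overlaps a peak, 14.9% hold TCAAGG and 9.88% hold AAGGTCA, against 9.20% and 1.41% of the 6304 with no peak. A match describes these letters only.

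Upp1, Ldhb, Fabp3 and the uncharacterised gene Gm38509 were the genes among the 12 lowest that were lower with auxin at all 9 stages. Upp1, uridine phosphorylase, was at 0.97 TPM with auxin and 2.13 TPM without auxin at 50 minutes, a difference of -0.67. In mitosis it had been at 0.188 TPM with auxin and 0.353 TPM without auxin, and at 120 minutes it was at 1.48 TPM with auxin and 5.33 TPM without auxin. The difference of Upp1 was -0.19 in mitosis and -0.38, -0.27, -0.41, -0.67, -1.01, -1.21 and -1.35 at the 7 times after release. It was more negative at each time after 30 minutes than at the one before, on a scale that understates the gap at the low early levels. At 20 minutes Upp1 was at 0.182 TPM with auxin and 0.536 TPM without auxin. Ldhb, a subunit of lactate dehydrogenase, was at 3.06 TPM with auxin and 5.37 TPM without auxin, and its difference of -0.65 at 50 minutes compared with -0.26 at 40 minutes and -0.96 at 60 minutes. Fabp3, a fatty acid binding protein, was at 1.79 TPM with auxin and 3.34 TPM without auxin. Its difference was -0.32, -0.64 and -0.77 at 40, 50 and 60 minutes. Gm38509 had a difference of -0.63 in mitosis and -0.73 at 50 minutes, with 2.20 TPM with auxin and 4.30 TPM without auxin at 50 minutes. In mitosis it was at 2.11 TPM with auxin and 3.81 TPM without auxin. Ldhb was lower in mitosis too, at 0.782 TPM with auxin and 1.36 TPM without auxin. So was Fabp3, at 0.458 TPM with auxin and 0.732 TPM without auxin. The scale understates gaps at such low levels, so the mitotic differences of these genes are not directly comparable.

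Naive pluripotency genes were mostly lower with auxin at 50 minutes. The list was chosen with earlier results of these data known, so its counts against those of all genes are no separate evidence. It has 42 genes, of which 41 are in the table and 39 reached 1 TPM. Of these, 33 were lower with auxin and 6 were higher, against 48.9% of all genes lower, and 11 were lower by at least 0.32, against 1.13% of all genes. None was higher by at least 0.32. None reached 1.5-fold in either direction on the log2(TPM + 1) scale, although the TPM of Nr0b1, Jam2, Tfcp2l1 and Nanog themselves differed by more than 1.5-fold. The median difference was -0.18, a value that 4.44% of all genes lay below. Summed over the list, the level was 247.5 TPM with auxin and 297.3 TPM without auxin. The authors' deposited table calls 30 of the 39 lower and 1 higher, against 9.46% and 8.52% of all genes. The call rests on these very samples.

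The 11 naive genes lower by at least 0.32 included transcription factors, an enzyme, an adhesion protein and widely used markers. Nanog, a homeodomain factor at the centre of the network, was at 4.34 TPM with auxin and 6.58 TPM without auxin, a difference of -0.51. Tfcp2l1, a transcription factor of the naive state, was at 1.56 TPM with auxin and 2.54 TPM without auxin (-0.47). Klf2, a Krüppel-like factor, was at 10.5 TPM with auxin and 13.4 TPM without auxin (-0.32). These 3 factors were lower with auxin at every one of the 9 stages. Nr0b1, a nuclear receptor family member without a DNA-binding domain of the usual kind, was at 0.58 TPM with auxin and 1.27 TPM without auxin (-0.53). Its level with auxin was close to that of the mitotic cells with auxin, 0.589 TPM, while the level without auxin stood well above the 0.703 TPM of the mitotic cells without auxin. Zfp57, which maintains imprinted methylation, was at 7.47 TPM with auxin and 9.63 TPM without auxin (-0.33), and Utf1, a chromatin-associated factor, was at 5.99 TPM with auxin and 7.76 TPM without auxin (-0.33).

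Among the markers and metabolic genes, Zfp42, also called Rex1, was at 21.8 TPM with auxin and 29.8 TPM without auxin, a difference of -0.44. Dppa5a was at 20.2 TPM with auxin and 28.0 TPM without auxin (-0.45). Zfp42 and Dppa5a were the most abundant members of the list, and Dppa5a has similar sequences elsewhere in the mouse genome, so its values are less certain. Tdh, threonine dehydrogenase, on which mouse embryonic stem cells depend for one-carbon units, was at 7.71 TPM with auxin and 11.2 TPM without auxin (-0.49). Jam2, a junctional adhesion molecule, had the most negative difference of the list, -0.57, with 1.79 TPM with auxin and 3.14 TPM without auxin. Triml2 was at 6.06 TPM with auxin and 9.02 TPM without auxin (-0.50).

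The other members of the list differed by less than 0.32, some of them by much less. Pou5f1, the Oct4 gene, was at 13.4 TPM with auxin and 14.9 TPM without auxin (-0.14). Klf5 was at 9.81 TPM with auxin and 10.2 TPM without auxin (-0.05), and Klf4 at 6.04 TPM with auxin and 7.36 TPM without auxin (-0.25). Klf2, Klf4 and Klf5 are related Krüppel-like factors, so the differences within this family spanned -0.32 to -0.05. The 6 members that were higher with auxin were Dppa3, Myc, Stat3, Gbx2, Socs3 and Trim28, of which Dppa3, a maternal factor, had the largest difference, 0.25, at 1.09 TPM with auxin and 0.76 TPM without auxin. Stat3 and Socs3 belong to the pathway of LIF (leukaemia inhibitory factor, a cytokine that maintains these cells), and their differences were 0.09 and 0.04. The remaining members ranged from Tcl1 at -0.30 to Rif1 at -0.02.

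**Figure D2:**
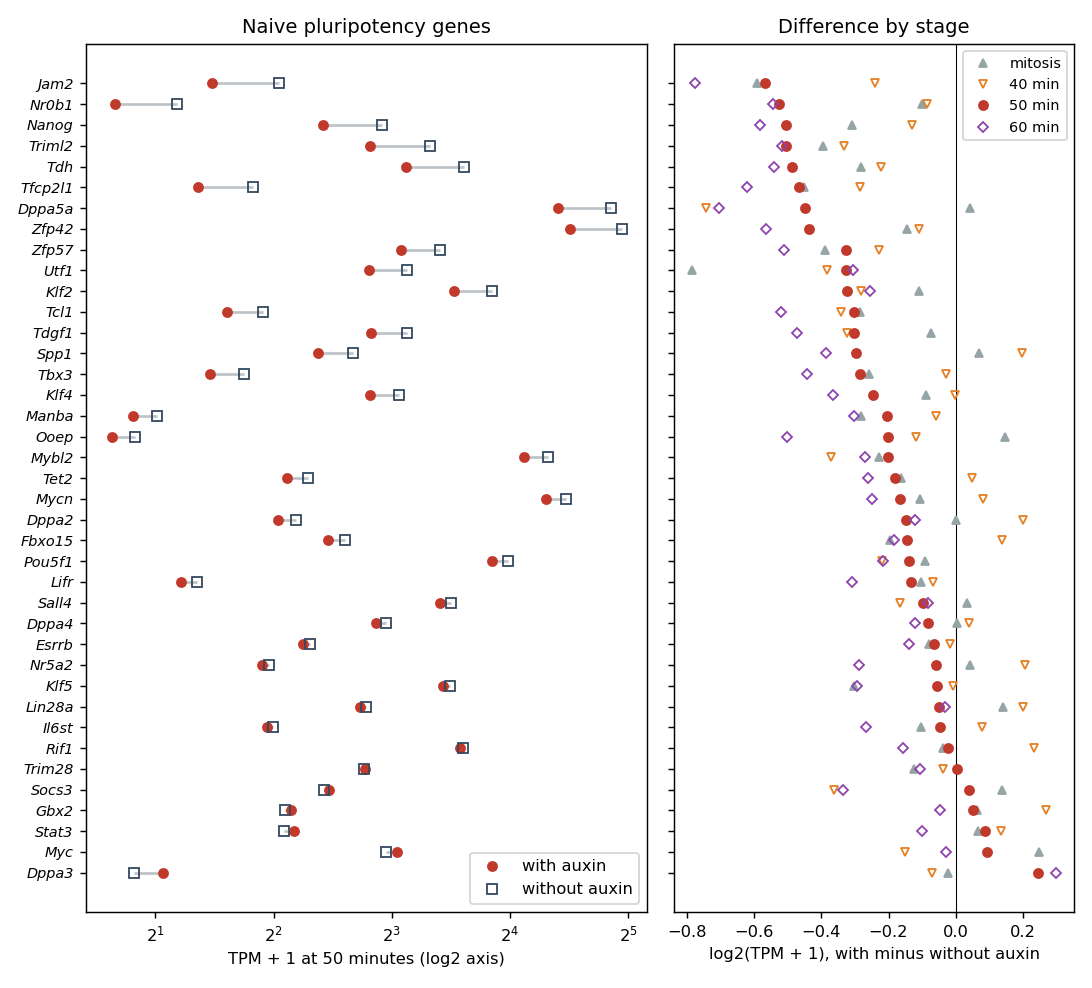
Left, level at 50 minutes as TPM + 1 (x axis, log2 scale) of each of the 39 naive pluripotency genes (rows, ordered by their difference), with auxin as red circles and without auxin as open squares. Right, the difference in log2(TPM + 1), with minus without auxin, of the same genes in mitosis and at 40, 50 and 60 minutes; at 50 minutes 33 of the 39 lie left of 0.

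On the log2(TPM + 1) scale, the naive genes were lower with auxin before this time, and the gap was larger after it. Their median difference was -0.10 in mitosis and -0.07, -0.18 and -0.29 at 40, 50 and 60 minutes, and it was -0.30 in asynchronous cells. Most of these genes had lower levels in mitosis, where the scale understates a gap, so the mitotic and later values are not directly comparable. The 40-minute value of the list stood against an all-gene median of 0.08, and the 60-minute value against -0.06. Between 40 and 50 minutes the median naive gene was higher by 0.43 with auxin and by 0.57 without auxin, and 28 of 39 increased less with auxin. Over all genes 6742 of 8999 increased less with auxin across these 10 minutes, so the count is close to that of the other genes. From mitosis to 50 minutes, the median increase of the naive genes was 0.62 with auxin and 0.65 without auxin, and 26 of 39 increased less with auxin, against 4628 of 8999 genes.

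**Figure D3:**
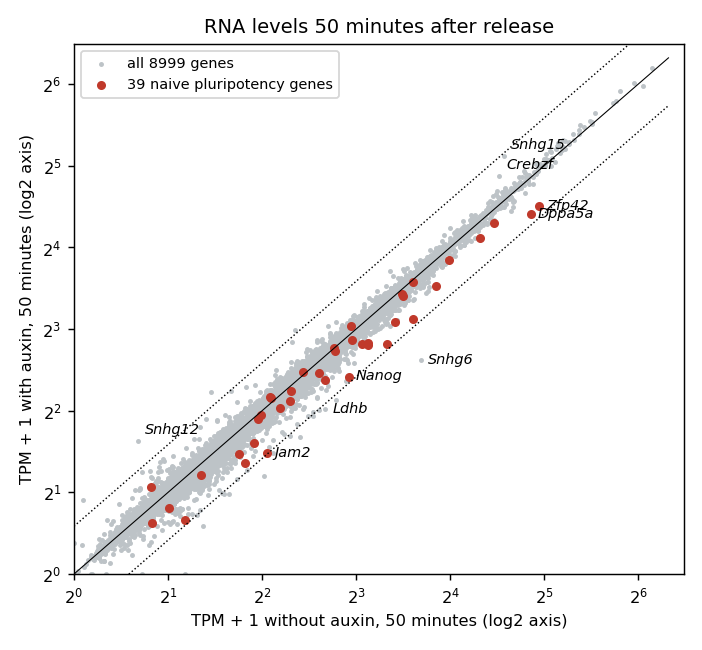
Level at 50 minutes as TPM + 1 without auxin (x axis) and with auxin (y axis), both on log2 axes, for the 8999 genes in grey and the 39 naive pluripotency genes in red. The solid line marks equal levels and the dotted lines 1.5-fold differences; 33 red points lie below the solid line and none lies outside the dotted lines.

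A subset of genes was apart at 50 minutes and at each later time of the course. At 50, 60, 90 and 120 minutes alike, 25 of 8999 genes (0.278%) were lower with auxin by at least 0.32 and 1 (0.0111%), Ints5, was higher by at least 0.32. This set and its genes were chosen after their values were seen. For 18 of the 25 the difference at 40 minutes was smaller than 0.32, for 4 (Dppa5a, Nanos3, Triml2 and Upp1) the run without a break began at 40 minutes, and for 3 (Gm38509, Nid2 and Ntn1) it began in mitosis. Of the 18, 11 had been lower by at least 0.32 in mitosis or at 20 or 30 minutes too, and were closer between the arms at 40 minutes. These are Jam2, Tfcp2l1, Zfp57, Ldhb, Fabp3, Nrp2, Rnf125, Snhg9, St8sia1, Zfp710 and 2410137M14Rik. Jam2, for example, was at -0.59 in mitosis and -0.24 at 40 minutes. The other 7 had not been lower by 0.32 in mitosis or up to 40 minutes, and 4 of them, Nanog, Nr0b1, Tdh and Zfp42, are naive genes, beside Fblim1, H2-M5 and Nphs1. These differences are not centred on the all-gene median, which was 0.01 in mitosis, 0.08 at 40 minutes and 0.00 at 50 minutes. A smaller gap at 40 minutes is therefore partly shared with genes in general. Fabp3 (-0.317) and Snhg9 (-0.320) lay just short of the threshold at 40 minutes. All 18 have at least 1 Nr5a2 peak within the gene or within 10 kb of it, as have 72.0% of all genes, and their median was 4 peaks, against 1 for all genes. A peak lay over the promoter window of 8 of the 15 that have one, against 13.2% of all windows.

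Nr0b1 shows this course most plainly. Its difference lay between -0.11 and 0.11 in mitosis and at 20, 30 and 40 minutes, was -0.53 at 50 minutes, and was -0.54, -0.79 and -0.83 at 60, 90 and 120 minutes. Zfp42 had differences of -0.15 in mitosis and -0.11, -0.44 and -0.56 at 40, 50 and 60 minutes. Nanog had -0.31 in mitosis and -0.13, -0.51 and -0.58 at those times. Nanog therefore was not equal between the arms before release. Its uncentred gap was smallest at 40 minutes, where the all-gene median was 0.08. At 20 minutes Nanog was at -0.17 and the all-gene median at -0.03, so relative to that median the gap was not smallest at 40 minutes.

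The sign of the difference held over the stages for many of the lower genes and for almost none of the higher ones. Of the 102 genes lower by at least 0.32 at 50 minutes, 31 (30.4%) were lower at each of the other 8 stages as well, against 420 of all 8999 genes (4.67%). Of the 39 genes higher by at least 0.32 at 50 minutes, 1 (2.56%) was higher at each of the other 8 stages, against 193 of all genes (2.14%). That gene is Crebzf, a bZIP transcriptional cofactor, at 28.4 TPM with auxin and 21.9 TPM without auxin. The authors' deposited table calls 30 of the 31 lower, all but Nrp2, a semaphorin receptor, against 9.46% of all genes. The call and the choice of the 31 rest on the same samples, so this is no separate evidence. Beside the genes above, and chosen after their values were seen, the 31 include Ntn1, a guidance cue (2.83 TPM with auxin and 4.60 TPM without auxin), Zc3h12a, an RNase that cuts inflammatory transcripts (2.57 TPM with auxin and 4.16 TPM without auxin), Nid2, a basement membrane protein (3.86 TPM with auxin and 5.17 TPM without auxin), and Pml, which forms nuclear bodies (7.19 TPM with auxin and 9.28 TPM without auxin). Nphs1 and the antisense gene Nphs1os are both among the 31. The libraries were stranded, but the strand setting of the counting is not stated, so reads of the pair may not be separated.

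All 31 genes had a Nr5a2 peak in or near them, as had 72.0% of all genes. The median was 4 peaks within the gene or 10 kb of it, against 1 peak for all genes, and 24 of the 31 (77.4%) had at least 3, against 25.7% of all genes. Of the 22 with a promoter window, 11 (50.0%) had a peak over it, against 13.2% of all 7266 windows. Their median span, from start to end of the gene, was 18163 bp, close to the 21858 bp of all genes.

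Over all genes, the share that was lower with auxin increased with the number of Nr5a2 peaks. Of 2506 genes with 0 peaks in the gene or within 10 kb, 40.0% were below 0 at 50 minutes, with a median of 0.02. Of 524 genes with 6 or more peaks, 70.8% were below 0, with a median of -0.04, and the groups with 1 to 5 peaks lay between in order. The share lower by at least 0.32 was 2.29% with 6 or more peaks and 0.758% with 0 peaks. These shifts are small beside the spread over genes. A peak over the promoter window went with 57.8% of 962 genes below 0 and 2.39% of them lower by at least 0.32, against 47.6% and 0.904% of the 6304 genes whose window had no peak.

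Genes with more peaks were also longer, so the counts were repeated within quintiles of genes by span, 5 groups of equal size. In the shortest quintile, 69.2% of genes with 3 or more peaks and 54.7% of genes with 0 peaks were below 0. In the longest quintile these shares were 49.6% with 3 or more peaks and 15.4% with 0 peaks. The share was higher with 3 or more peaks in each of the 5 quintiles, and it was lower in longer than in shorter genes among those with 0 peaks. The gap was present at the other stages too. The median of genes with 6 or more peaks minus that of genes with 0 peaks was -0.03 in mitosis and -0.05, -0.06, -0.06 and -0.07 at 40, 50, 60 and 120 minutes, whatever the sign of the all-gene median.

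**Figure D4:**
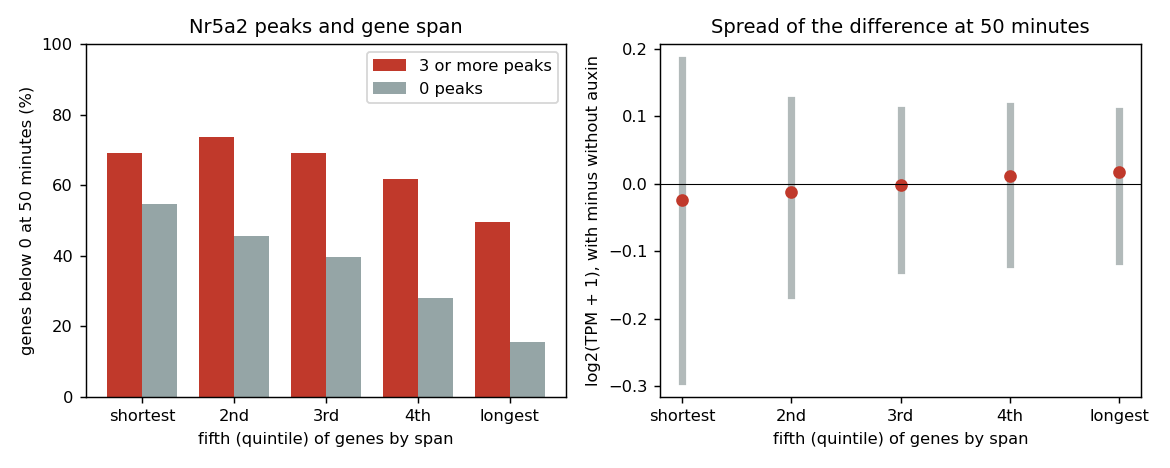
Left, percentage of genes below 0 at 50 minutes (y axis) in quintiles of genes by span (x axis), for genes with 3 or more Nr5a2 peaks in the gene or within 10 kb (red) and with 0 peaks (grey); the red bar is higher in every quintile. Right, the difference in log2(TPM + 1), with minus without auxin, in the same quintiles, with the median as a point and the range from the 5th to the 95th percentile of genes as a bar, which is widest in the shortest quintile.

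Large differences were concentrated in short genes. The standard deviation of the difference over genes was 0.157 in the shortest quintile, with a median span of 4621 bp, and 0.071 in the longest quintile, with a median span of 95475 bp. Of the genes that differed by at least 0.32 in either direction, 104 were in the shortest quintile and 13, 6, 11 and 6 in the others, from shorter to longer. By level, the standard deviation was 0.105 in the lowest and 0.091 in the highest quintile, and 40, 37, 27, 23 and 14 genes differed by at least 0.32, from lower to higher TPM. Short genes that were lower by at least 0.32 seldom held their sign. In the shortest quintile 7 of 70 were lower at all the other 8 stages, against 3.52% of all genes of that quintile, and in the other quintiles 24 of 31 were, against 4.93% of all genes there. The part that gene span has in these differences was not tested.

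The remaining 8 of the 12 lowest genes did not hold their sign, and most are short or noncoding. Snhg6, a host gene of small nucleolar RNAs, was at 5.16 TPM with auxin and 11.9 TPM without auxin, a difference of -1.07. At 40 minutes it was at 3.56 TPM with auxin and 9.38 TPM without auxin, but at 60 minutes at 13.1 TPM with auxin and 13.6 TPM without auxin, so the gap closed. Snhg5, another host gene, is listed at 0 with auxin and at 1.27 TPM without auxin, and 1700030C10Rik is listed at 0 with auxin and at 0.66 TPM without auxin. Snhg5 was the other way at 60 minutes, with 5.04 TPM with auxin and listed at 0 without auxin. Emc6, a subunit of the membrane protein insertion complex of the endoplasmic reticulum, was at 3.39 TPM with auxin and 5.88 TPM without auxin, while its difference was 0.02 at 40 minutes and -0.16 at 60 minutes. Pagr1a, a partner of a histone methyltransferase complex, had differences of 0.22, -0.61 and 0.12 at 40, 50 and 60 minutes. The others were 1700047I17Rik2, 2700046G09Rik and E130317F20Rik, with differences of -0.82, -0.78 and -0.61.

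None of the 12 highest genes was higher with auxin at all 9 stages, and 9 of the 12 span less than 5000 bp. Snhg12 was at 2.10 TPM with auxin and 0.60 TPM without auxin (0.95). Trappc5, a subunit of a vesicle tethering complex, was at 0.88 TPM with auxin and 0.07 TPM without auxin (0.82), and at 60 minutes at 0.061 TPM with auxin and 1.38 TPM without auxin. Fam177a was at 3.71 TPM with auxin and 1.76 TPM without auxin (0.77), and at 60 minutes at 1.79 TPM with auxin and 3.67 TPM without auxin. The arms of Trappc5 and Fam177a thus changed places within 10 minutes. Mir298, a microRNA gene, was at 6.96 TPM with auxin and 4.09 TPM without auxin (0.64). Nkx2-9, a homeobox gene, was at 3.71 TPM with auxin and 2.17 TPM without auxin (0.57), and Myl6, a myosin light chain, at 1.39 TPM with auxin and 0.65 TPM without auxin (0.53). Zc3h7a, an RNA-binding zinc finger protein, was at 6.19 TPM with auxin and 3.99 TPM without auxin (0.52), 10 minutes after a single value of 88.5 TPM with auxin against 4.10 TPM without auxin. Rbm4, Tmem101, 2810408A11Rik and Lrfn4 had differences of 0.46 to 0.50.

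Host genes of small nucleolar RNAs were among the extremes on both sides. Snhg15, the remaining gene of the 12 highest, was at 33.8 TPM with auxin and 22.8 TPM without auxin at 50 minutes (0.55), whereas at 40 minutes it was at 5.86 TPM with auxin and 33.3 TPM without auxin (-2.32). Taking the Snhg genes and Gas5 together, a family looked at after its values were seen, 6 of 10 differed by at least 0.32, 3 lower and 3 higher, against 1.13% of all genes lower and 0.433% higher. Most of the 10 are short, and in the shortest quintile 70 of 1789 genes were lower and 34 higher by that much. Of the 6 host genes, 4 differed by at least 0.32 in the opposite direction at another stage. So did 41 of the 141 such genes over all (29.1%) and 33 of the 104 in the shortest quintile (31.7%). Small nucleolar RNAs are cut from the introns of such genes, and whether the values hold spliced RNA, introns or both is not stated.

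**Figure D5:**
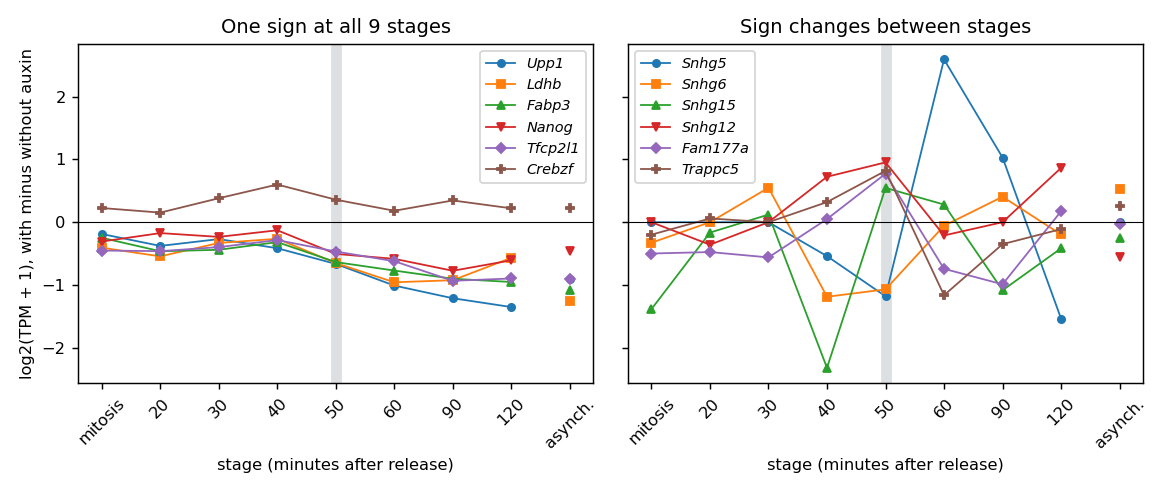
Difference in log2(TPM + 1), with minus without auxin (y axis), at each stage (x axis, with 50 minutes shaded) for 6 genes with 1 sign at all 9 stages (left) and 6 genes whose sign changed between stages (right). Upp1, Ldhb and Fabp3 lie below 0 throughout, while Snhg5 is at -1.18 at 50 minutes and 2.59 at 60 minutes.

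The genes whose 50-minute difference lay farthest outside the range of their own 40- and 60-minute differences were mostly of this kind. On the lower side they were 1700047I17Rik2, Pagr1a, Npff, Lyrm2 and 2700046G09Rik. Npff, a neuropeptide precursor, was at 1.04 TPM with auxin and 1.92 TPM without auxin at 50 minutes, with differences of 0.29, -0.52 and 0.44 at 40, 50 and 60 minutes. On the higher side they were Zfp646, Snhg17, Moap1, Rps13 and Fam177a. Zfp646, a zinc finger gene, had 7.21 TPM with auxin and 5.51 TPM without auxin, with differences of -0.33, 0.34 and -0.47 at 40, 50 and 60 minutes. Snhg17 and Moap1 are listed at 0 in both arms at 50 minutes, and Rps13, a ribosomal protein gene with processed copies in the genome, was at 1.16 TPM in both arms.

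Most other gene lists had medians nearer to 0, and the 3 trophectoderm genes (-0.16) and 7 germ layer genes (0.11) farther from 0 are few. Formative and primed pluripotency genes had a median of -0.08 with 8 of 13 lower, among them Tcf15 (9.31 TPM with auxin and 11.3 TPM without auxin) and Etv4, while Zic2 was higher with auxin (7.15 TPM with auxin and 6.35 TPM without auxin). LIF and JAK-STAT3 genes had a median of -0.08, with 11 of 18 lower, and the 3 of them lower by at least 0.32 were Tfcp2l1, Ier3 and Gadd45g. Tfcp2l1 is a naive gene too, so the lists are not separate. FGF and ERK response genes, which answer growth factor signalling, had a median of 0.04 with 13 of 22 higher, but Ier3, which is on both lists (1.255 TPM with auxin and 1.98 TPM without auxin), Ccnd1, which is cyclin D1 (3.10 TPM with auxin and 4.01 TPM without auxin), and the feedback inhibitor Spry4 (10.1 TPM with auxin and 12.6 TPM without auxin) were lower. In the WNT list 11 of 16 genes and in the Notch list 13 of 16 genes were higher with auxin, against 51.1% of all genes, with medians of 0.04 each. The Notch ligands Jag1 (7.63 TPM with auxin and 6.82 TPM without auxin) and Dll1 (6.38 TPM with auxin and 5.83 TPM without auxin) were on the higher side, and Hes1, a target, was at 5.72 TPM with auxin and 6.26 TPM without auxin. No gene of either list differed by 0.32 or more.

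In the Nodal and TGF-beta list the median was 0.01, and the BMP targets Id1 and Id3 differed in sign, with Id1 at 1.85 TPM with auxin and 2.79 TPM without auxin and Id3 at 3.998 TPM with auxin and 3.51 TPM without auxin. Genes of other lineages were low. Of 19 primitive endoderm genes 4 reached 1 TPM, all 4 higher with auxin by 0.05 to 0.08, and of 18 trophectoderm genes 3 did, 2 of them lower, with a median of -0.16 that was 0.01 over the listed genes without the filter on low values, and with Tfap2c, which embryonic stem cells also express, at 3.22 TPM with auxin and 4.16 TPM without auxin. The germ layer list had 5 of 7 genes higher, and 1 higher by at least 0.32, the homeobox gene Msx1, at 1.41 TPM with auxin and 0.76 TPM without auxin. The 2-cell-like list had 1 measured gene, Eif1a, a gene with related copies, at 15.9 TPM with auxin and 16.8 TPM without auxin.

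Growth and cell cycle lists had medians within 0.05 of 0. Among mitotic genes 25 of 46 were lower, with Birc5, survivin, the farthest at 5.001 TPM with auxin and 6.554 TPM without auxin. G1/S and replication genes (32 of 57 lower) and p53 response genes (15 of 25 lower) had no member that differed by 0.32 or more. The replication helicase gene Mcm7 was at 20.9 TPM with auxin and 24.05 TPM without auxin, and Btg2, a p53 target, at 21.5 TPM with auxin and 24.4 TPM without auxin. In glycolysis Ldhb was the sole gene that differed by 0.32 or more, and the glucose transporters Slc2a1 (10.6 TPM with auxin and 12.1 TPM without auxin) and Slc2a3 (3.17 TPM with auxin and 3.77 TPM without auxin) were lower. Oxidative phosphorylation (29 of 54 lower), ribosome biogenesis (18 of 38 lower), cholesterol synthesis (12 of 28 lower), heat shock (11 of 25 lower), amino acid stress (13 of 21 lower) and Polycomb genes (13 of 29 lower) had medians within 0.02 of 0, and 48.9% of all genes were lower. Genes of RNA polymerase II and Mediator had a median of 0.02 with 28 of 45 higher, and of the immediate early genes 10 of 16 were lower, with Fos at 1.59 TPM with auxin and 1.98 TPM without auxin. In the matrix list Nid2 was lower by at least 0.32, and 7 of 17 genes were lower. Tet1, a DNA demethylase of the embryonic stem cell, was at 6.76 TPM with auxin and 7.88 TPM without auxin, in a DNA methylation list with 8 of 16 lower. Of the list on threonine, glycine and serine use, Tdh was the sole gene that differed by 0.32 or more, and 11 of 18 were lower.

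The authors' calls followed the 50-minute values in sign. The authors' deposited table calls 851 of the 8999 genes lower (9.46%) and 767 higher (8.52%). Of the 851, 761 (89.4%) were below 0 at 50 minutes with a median of -0.11, and of the 767, 673 (87.7%) were above 0 with a median of 0.07. Of the 7381 genes not called, 48.0% were below 0. The call rests on these very samples, with stages and threshold not given in the sources used here, so this is no separate evidence. Of the 102 genes lower by at least 0.32 at 50 minutes, 44 are called lower and 57 are not called, and of the 39 higher by at least 0.32, 4 are called higher, 4 lower and 31 are not called.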

How the data were processed

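RNA-seq of 54 libraries (18 groups of 3) and ChIP-seq of 12 libraries were processed by the authors with STAR, RSEM, DESeq2, Bowtie2 and MACS2 on mm10, per the submitters' processing notes, which give no versions here. The authors deposited expression as TPM, 1 column per group, each the authors' mean of 3 libraries, which keeps neither the spread nor the depth of a library. The part of a gene that was quantified is not stated. Leaving out a library was not possible on means. From the deposited TPM values, log2(TPM + 1) was taken with Python 3.11.15, pandas 2.3.3 and numpy 2.4.6, and subtracted as with auxin minus without auxin, for genes of at least 1 TPM in any group. Gene counts are those past a 1.5-fold difference or a difference of 0.32 on that scale. The code for the 1.5-fold count was checked on simulated data without noise or low genes. That check does not cover the 0.32 count or noise between libraries. Peaks were assigned within a gene or 10 kb of it, with RefSeq GRCm38.p6 positions for 8943 of 8999 genes and promoters for 7266. The genes and the 28 gene lists were chosen with earlier results of these data known. The genes named by rule are Esrrb, Nr5a2, the naive list, the 12 lowest and 12 highest differences, up to 4 members of each other list with the largest differences, and the 5 in each direction farthest outside their 40- and 60-minute differences. Another pseudocount, another filter, centring and quantile normalization were tried.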

Additional observations from a re-analysis of the deposited data

Results flagged for a closer look

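For 3 genes the difference in log2(TPM + 1), with minus without auxin, was past 1.5-fold at 50 minutes and past 1.5-fold in the opposite direction at 60 minutes, and the difference between the 2 times was not tested. Fam177a had 0.773 at 50 minutes and -0.74 at 60 minutes. Trappc5 had 0.819 at 50 minutes and -1.16 at 60 minutes. Snhg5 had -1.18 at 50 minutes, where it is listed at 0 with auxin, and 2.59 at 60 minutes, where it is listed at 0 without auxin.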

How the results depend on the processing

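The count of genes 1.5-fold lower was 15, and it was 80 with a pseudocount of 0.1, 35 with 0.5, 9 where 1 TPM was required in both arms (7403 genes) and 9 after quantile normalization. The count of 1.5-fold higher genes was 4, and under the first 3 of these settings it was 31, 10 and 2. By at least 0.32, 102 genes were lower in the values reported, and 267, 165 and 66 were under those 3 settings. By that much 39 were higher, and 100 were with a pseudocount of 0.1 and 21 with 1 TPM in both arms. Counts past a fold therefore depend on low genes. The all-gene median of 0.00193 was 0.00118 without a filter, 0 after centring and 0.00714 after quantile normalization. The naive list had 33 genes below 0 and 6 above under each setting that kept its 39 genes, and 30 below of 35 with 1 TPM in both arms; its median lay between -0.21 and -0.16, and 9 to 17 of its genes were lower by at least 0.32. No paired analysis was possible because the deposited columns are group means, and the same holds for leaving out a replicate. The depth of the libraries is unknown.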
